A study of Mus musculus with 9 samples.

Results

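The nuclear genes for the subunits of oxidative phosphorylation were followed across 9 RNA-seq libraries of mouse anterior lens capsule. This capsule is a basement membrane made by the lens epithelium that lines it. A gene belonged to the set when its symbol began with Ndufa, Ndufb, Ndufc, Ndufs or Ndufv and a number, or was Ndufab1, Sdha to Sdhd, Uqcr, Cox4 to Cox8 or Atp5 with any ending. Assembly factors named Ndufaf were left out, as were genes with fewer than 100 counts summed over the libraries. Of 17527 genes in the count table, 87 symbols matched and 85 passed the count minimum. The genes left out were Cox6a2, with 23 counts in all, and Ndufb4c, with 39, and the lowest kept were Ndufb4b with 121, Cox7a1 with 175 and Ndufs6b with 203. The 85 genes comprised 39 of complex I, 4 of complex II, 8 of complex III, 17 of complex IV and 17 of complex V. Ndufa4 and Ndufa4l2, named after complex I, were counted with complex IV, where the Ndufa4 protein is found.

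Each of 3 groups had 3 libraries: young controls, aged controls, and aged animals treated with EGCG (epigallocatechin gallate), the main green tea catechin. The sources used here do not give strain, sex, ages, dose, route or duration, nor whether animals were pooled, so the spread behind each p-value is that of these libraries alone and may be technical. The series concerns EGCG and cataract of old age, and the comparisons ask how subunit transcripts differed with age and with EGCG.

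Oxidative phosphorylation takes place in the inner mitochondrial membrane. Complexes I and II pass electrons from NADH and succinate to ubiquinone, complex III passes them to cytochrome c, complex IV passes them to oxygen, and complex V, the ATP synthase, uses the resulting proton gradient to make ATP. A few core subunits are encoded by mitochondrial DNA and were not analysed here. In the lens, mitochondria are kept by the epithelium and the outer fibre cells and are removed as fibre cells mature.

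Library totals ranged from 13184169 to 16528179 counts, and 3 counts in a library corresponded to 0.182 to 0.228 CPM, that is counts relative to the library total. Levels below are CPM scaled by the TMM method of edgeR unless FPKM, which is per gene length, is named. A change is a log2 fold change from the quasi-likelihood test of edgeR, and a gene was called higher or lower at a Benjamini-Hochberg adjusted p under 0.05 over the 13711 genes tested. All 85 subunit genes were among those tested. The 19 lens fibre markers took 4.79%, 4.21% and 4.01% of counts in young control, aged control and EGCG libraries, and the 14 lens epithelium markers took 0.471%, 0.639% and 0.637%. Single lens markers moved with the groups: with age, 13 fibre markers were called higher and 6 lower (median 0.41) and 9 epithelium markers higher and 3 lower (median 0.67). With EGCG against aged control, 12 fibre markers were called lower and none higher (median -0.20), and 6 epithelium markers lower and 1 higher (median -0.083). The libraries also held transcripts of other eye tissues that moved with the groups. The 41 retina markers summed to between 3.21% and 3.24% of counts in young control, between 0.156% and 0.167% in aged control, and between 1.22% and 1.23% in EGCG libraries. All 41 were called lower with age and 40 were called higher with EGCG. The 16 endothelial and mural markers took 0.0279%, 0.0162% and 0.0150% of counts, and 11 of them were called lower with age. The 18 striated muscle markers summed to at most 0.00267% of counts in any library, the 7 immune markers to at most 0.00369% and the 7 pigment cell markers to at most 0.0245%. Red blood cell markers took 0.0237%, 0.000629% and 0.00219% of counts, and the 7 smooth muscle markers 0.0361%, 0.0671% and 0.0521%. That smooth muscle sum did not follow most of its genes: of 5 tested with age, 1 was called higher and 4 lower (median -1.98). With EGCG against aged control, 1 of the 5 was called lower and 0 higher. No lens or retina marker was at 0 in any group. The part of lens markers and of these other tissues in the results below was not tested, and in bulk tissue fewer cells of a type and less RNA per cell cannot be told apart.

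In aged control against young control libraries, most subunit transcripts were higher. Of the 85 genes, 61 were called higher and 3 lower, and the median log2 fold change was 0.41. Over all genes tested, 35.4% were called higher and 33.8% lower, with a median of 0.023. The 3 called lower were Cox4i2, Ndufa4 and Ndufs1. The largest rise was that of Ndufa4l2, followed by those of Ndufa13, Sdhb, Cox7a2l and Cox6a1, each close to a doubling. The number of calls depended on how libraries were scaled. With library size alone 33 subunit genes were called higher and 22 lower, with scaling to lens fibre genes 41 and 16, and with each library's trend against gene length removed 41 and 17. Of all genes tested, 21.4% were called higher and 47.0% lower with library size alone. These shares were 24.6% and 43.8% with fibre scaling, and 44.4% and 25.1% with the length trend removed. These scalings shifted the median of all genes to -0.30, -0.22 and 0.22. Relative to that median, the subunit genes stood 0.39 higher under TMM, under library size and under fibre scaling, and 0.068 lower with the length trend removed. The first 3 of these apply a single factor to each library and shift all genes nearly alike, so their equal gap was fixed beforehand. Only removal of the length trend could change it. In all 5 scalings run, with DESeq2 size factors as the fifth, 33 subunit genes were called higher and the same 3 were called lower. Over all genes tested this was not counted. Their shares cannot exceed 21.4% higher and 25.1% lower, the lowest under any of the 5 scalings.

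**Figure D1:**
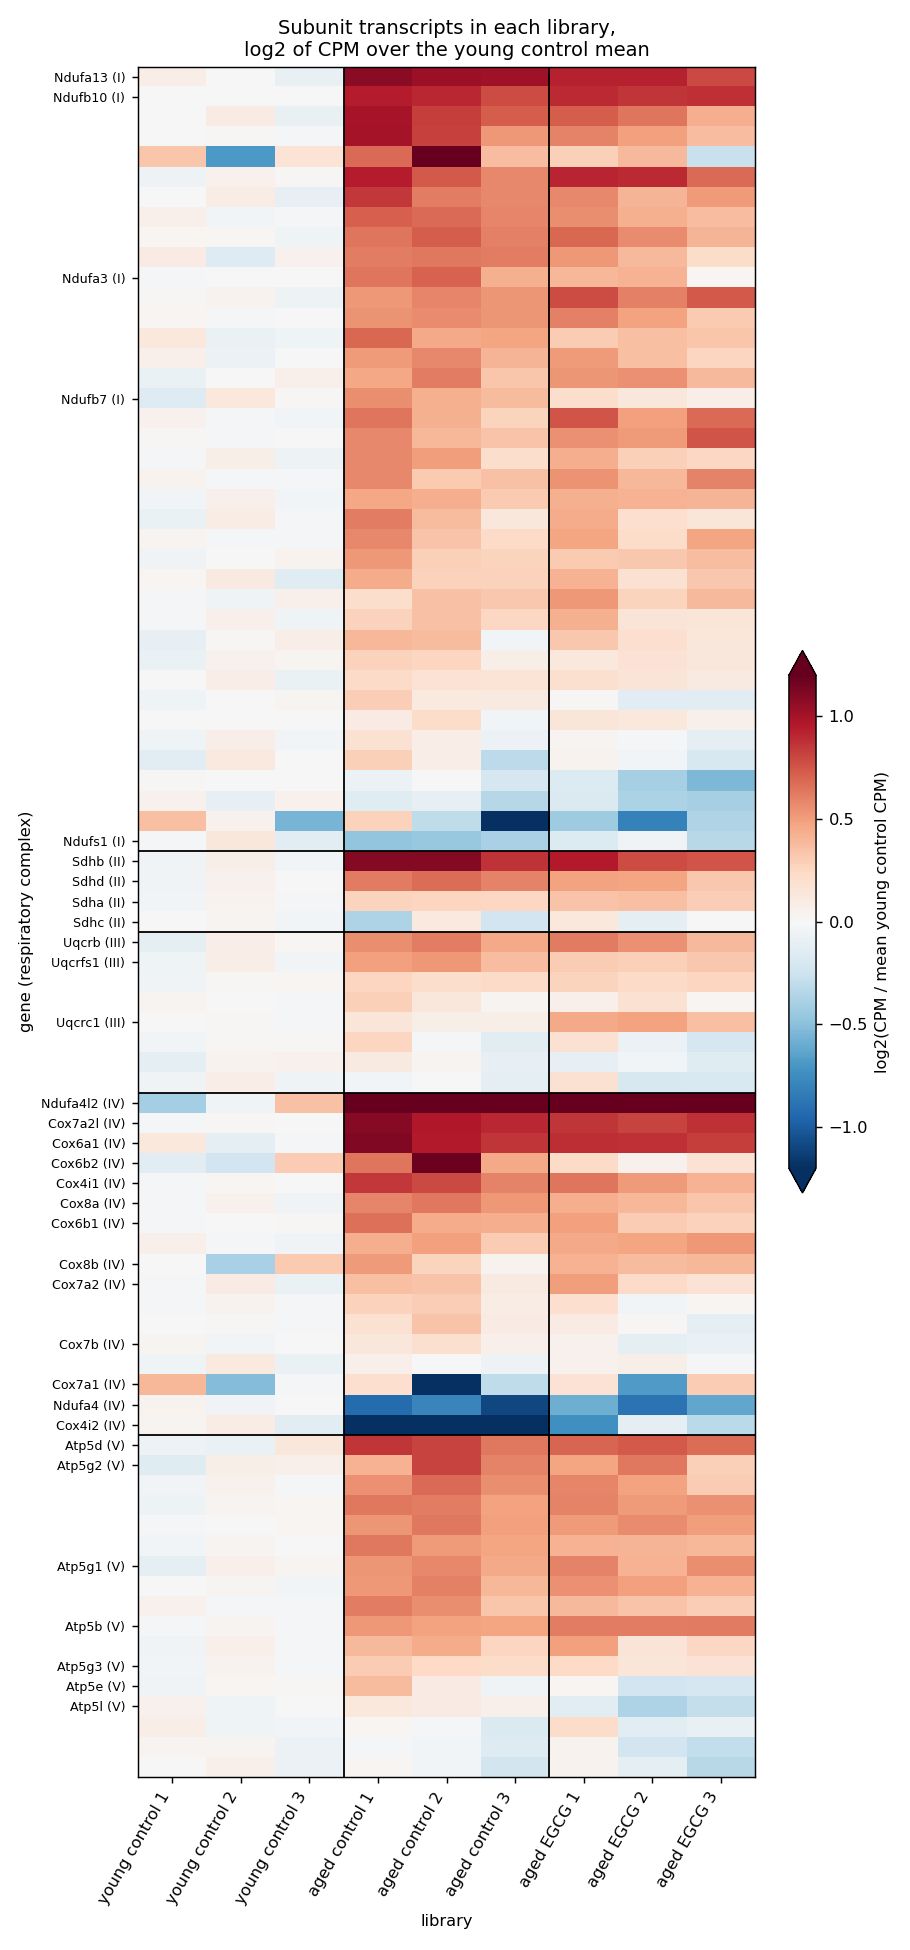
Level of each of the 85 subunit genes in each of the 9 libraries, as log2 of CPM over the mean of the young control libraries, with genes ordered within each complex by their change with age and labels on those treated in most detail. Red is higher and blue is lower than young control, with colours saturated beyond the ends of the scale. Most rows are red in aged control and EGCG libraries, and Ndufa4 and Cox4i2 are blue there.

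Promoter windows of RefSeq (GRCm38.p6, 250 bases before to 50 after each gene's start) were present for 70 of the 85 genes and for 27025 genes in all. They were searched on both strands for the core letters of sites of NRF1 (GCATGCGC), YY1 (AAGATGGC) and ETS-family factors such as GABPA (CCGGAAG), regulators known for subunit genes. The NRF1 letters were in 10 of 70 windows, 14.3%, against 3.05% of all windows. The YY1 letters were in 10 of 70, 14.3%, against 3.19%, and the ETS letters in 17 of 70, 24.3%, against 9.93%. By complex, the YY1 letters were in 7 of 34 windows of complex I and 3 of 15 of complex V. They began 3 bases before the RefSeq start in Atp5pb, 88 before it in Atp5j, and 23 to 39 after it in the others. The bases of the window before both the RefSeq and the GENCODE start are shown for 4 genes: 3 that hold the NRF1 letters there, and Ndufa4, which holds none of the letters. They are written 5′ to 3′ on the gene's strand, with matches in capitals: Ndufa6 chr15:82354323-82354541 (minus), Cox6a1 chr5:115348982-115349208 (minus), Atp5l chr9:44920743-44920992 (minus) and Ndufa4 chr6:11907498-11907700 (minus).
Ndufa6: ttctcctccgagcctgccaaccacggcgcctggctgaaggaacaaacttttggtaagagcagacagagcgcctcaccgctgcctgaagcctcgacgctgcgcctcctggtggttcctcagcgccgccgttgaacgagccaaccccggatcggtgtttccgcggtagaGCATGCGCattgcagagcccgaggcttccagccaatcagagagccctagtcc
Cox6a1: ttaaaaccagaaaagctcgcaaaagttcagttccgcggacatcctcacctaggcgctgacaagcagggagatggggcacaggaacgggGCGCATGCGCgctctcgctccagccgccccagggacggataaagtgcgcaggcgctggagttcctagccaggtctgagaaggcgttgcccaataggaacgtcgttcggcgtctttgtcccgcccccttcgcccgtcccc
Atp5l: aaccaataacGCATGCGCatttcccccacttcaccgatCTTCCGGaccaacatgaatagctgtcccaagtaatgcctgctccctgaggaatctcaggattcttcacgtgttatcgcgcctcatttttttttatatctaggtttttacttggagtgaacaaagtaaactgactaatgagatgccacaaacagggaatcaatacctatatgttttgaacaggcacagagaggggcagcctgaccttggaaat
Ndufa4: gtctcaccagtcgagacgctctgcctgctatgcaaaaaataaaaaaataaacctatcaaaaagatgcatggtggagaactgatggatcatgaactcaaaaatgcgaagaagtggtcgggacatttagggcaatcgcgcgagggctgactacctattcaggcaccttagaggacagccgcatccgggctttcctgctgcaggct
The NRF1 letters began 83 bases before the RefSeq start in Ndufa6, 162 in Cox6a1 and 240 in Atp5l. In Cox6a1 the palindromic run gives overlapping matches on both strands. ETS letters were found in the windows of Cox6a1 and Atp5l, of which those 212 bases before the start of Atp5l lie in the bases shown. Ndufa6 and Cox6a1 were called higher with age, by 0.86 and 0.98, and Atp5l was not called, at 0.095. Ndufa4, which was called lower, held none of these letters in its window. Of the other genes with NRF1 letters, Ndufa8, Sdhb, Atp5g2 and Ndufa11 were called higher with age, and Atp5k, Uqcrc1 and Uqcr11 were not called. The 4 genes shown are examples, and whether the letters go with the changes was not tested. A match is a description of the letters and not of a bound site.

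In complex I, 30 of 39 genes were called higher with age and 1 lower, with a median of 0.44. Ndufa13, an accessory subunit of complex I, had the largest change, at 126, 119 and 112 CPM in young control libraries, 251, 241 and 240.2 in aged control libraries and 226, 225 and 205 with EGCG. All aged levels were above all young levels (aged against young, log2 fold change 1.04, standard error 0.054, adjusted p = 6.9e-22). Ndufb10, an accessory subunit of the membrane arm, read 105, 104 and 104 CPM in young control libraries, 202, 195 and 181 in aged control libraries and 195, 190.2 and 192 with EGCG (log2 fold change 0.88, standard error 0.054, adjusted p = 3.3e-19 with age). The aged and EGCG ranges of Ndufb10 overlapped, and both lay above the young range. Ndufa6, Ndufa8 and Ndufc1, all accessory subunits, rose with age by 0.86, 0.76 and 0.79 on the log2 scale.

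The 7 core subunits of complex I with nuclear genes carry the flavin and iron-sulfur centres that lead electrons to ubiquinone, and 6 of them were called higher with age and 1 lower. Ndufv1, which binds the flavin, rose by 0.44, Ndufv2 by 0.50, Ndufs8 by 0.45 and Ndufs7 by 0.20. The call of Ndufs7 was lost without aged control replicate 1 or 2 and without young control replicate 1 or 3. With library size alone, the counts for these 7 were 1 higher and 2 lower. Ndufs1, the largest iron-sulfur subunit (GRCm38 chr1:63143596-63176833, minus strand), was called lower. It read 43.8, 48.7 and 40.7 CPM in young control libraries, 31.9, 32.4 and 33.9 in aged control libraries and 39.7, 43.1 and 35.4 with EGCG (log2 fold change -0.44, standard error 0.092, adjusted p = 4.3e-05 with age). The young and aged values did not overlap, and all EGCG values lay above the aged ones. Exons of Ndufs1 overlap those of Eef1b2, a translation elongation factor gene on the other strand, whose mean level was 301 CPM in young control libraries, 657 in aged control libraries and 581 with EGCG. The sources used here do not say whether counting used strand, so reads of such partners cannot be told apart, and 24 of the 85 genes have exons that overlap a gene on the other strand.

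The 8 complex I genes with no call with age were Ndufa1, Ndufb1, Ndufb2, Ndufb3, Ndufb4, Ndufb8, Ndufb4b and Ndufs6b. Ndufa1, a small membrane-anchored subunit, read 109, 108 and 108 CPM in young control and 103, 108 and 94.1 in aged control libraries, and its change of -0.086 had a 95% interval of -0.22 to 0.051. Ndufb8, a membrane arm subunit, changed by 0.070 with an interval of -0.059 to 0.20. Ndufb4b and Ndufs6b were low, with 1.08 ± 0.33 and 1.2 ± 0.40 CPM (SD, n = 3) in young control libraries, and their intervals of -1.36 to 0.81 and -0.10 to 1.68 were wide. Ndufb4b is a near-identical copy of Ndufb4, and Ndufs6b, a processed pseudogene in the GENCODE annotation, is a copy of Ndufs6, so the split of reads within each pair is uncertain.

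Complex II, succinate dehydrogenase, is the one complex with all subunits encoded in the nucleus and also works in the citric acid cycle. Sdhb, its iron-sulfur subunit (GRCm38 chr4:140961203-140979193, plus strand), read 57.4, 62.1 and 58.0 CPM in young control libraries, 127, 127 and 108 in aged control libraries and 114, 102 and 100.2 with EGCG. Aged levels were 2.04-fold the young ones (log2 fold change 1.03, standard error 0.068, adjusted p = 3.8e-18), with no overlap. Sdhd, a membrane anchor, read 37.1, 39.5 and 38.0 CPM in young control libraries, 58.8, 61.0 and 57.8 in aged control libraries and 53.4, 53.1 and 47.8 with EGCG (log2 fold change 0.63, standard error 0.079, adjusted p = 1.4e-09 with age). Sdha, the flavoprotein, went from 185, 195 and 187 to 228, 227 and 224 CPM with age (log2 fold change 0.26, standard error 0.049, adjusted p = 9.7e-06), a smaller change with no overlap between groups. With library size alone the change of Sdha was -0.062, with an adjusted p of 0.275. Sdhc, the other membrane anchor, read 42.1, 43.1 and 41.1 CPM in young control and 32.5, 45.8 and 35.9 in aged control libraries, which overlapped, and was not called (log2 fold change -0.14, standard error 0.096, adjusted p = 0.182). The changes of the 4 complex II transcripts with age thus ran from -0.14 to 1.03.

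In complex III, 4 of 8 genes were called higher with age and none lower, and the median of 0.13 was the lowest of the 5 complexes. Uqcrb, a small subunit at the ubiquinone site, rose from 46.6, 53.3 and 51.1 to 74.0, 76.9 and 69.1 CPM (log2 fold change 0.54, standard error 0.075, adjusted p = 1.4e-08), with no overlap. Uqcrfs1, the Rieske iron-sulfur protein, rose from 38.6, 42.6 and 39.2 to 56.4, 57.7 and 52.0 CPM, also with no overlap (log2 fold change 0.46, standard error 0.080, adjusted p = 1.5e-06). Uqcrc2, a core protein, rose by 0.23, and Uqcrq, a small subunit, by 0.16 with overlapping libraries, a call lost without aged control replicate 1 or any 1 of the young libraries. Uqcrc1, the other core protein, changed by 0.10 (interval -0.020 to 0.21), Uqcrh by 0.047, Uqcr11 by 0.019 and Uqcr10 by -0.044, none of them called. The direction of this complex turned with the scaling: library size alone gave 1 higher and 5 lower, and removal of the length trend 3 and 3. Uqcrb was called higher in all 5 scalings.

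In complex IV, cytochrome c oxidase, 11 of 17 genes were called higher with age and 2 lower, with a median of 0.29. This complex held both the largest rise and the largest fall of the 85 genes. Cox6a1, the ubiquitous form of subunit 6a, read 93.9, 79.9 and 84.9 CPM in young control libraries, 187, 167 and 156 in aged control libraries and 159, 159 and 153 with EGCG (log2 fold change 0.98, standard error 0.063, adjusted p = 1.2e-18 with age). Young libraries lay below all others. Cox8a and Cox6b1, small subunits present in most tissues, rose with age by 0.58 and 0.51. Cox5a, which sits on the matrix side, read 52.0, 58.4 and 50.9 CPM in young control and 56.2, 53.6 and 51.7 in aged control libraries, and its interval of -0.15 to 0.16 included 0. Cox7b, also not called, changed by 0.13.

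Subunit Ndufa4 and its paralog Ndufa4l2, which in other cells is induced by low oxygen, changed in opposite directions. Ndufa4l2 (GRCm38 chr10:127514967-127517154, plus strand) read 6.18, 7.91 and 10.4 CPM in young control libraries, 92.5, 79.1 and 76.3 in aged control libraries and 57.2, 53.4 and 64.3 with EGCG. The 3 groups did not overlap, and aged levels were 10.1-fold the young ones (log2 fold change 3.33, standard error 0.11, adjusted p = 3.6e-29). Ndufa4 (GRCm38 chr6:11900292-11907497, minus strand) read 159, 151 and 155 CPM in young control libraries, 81.8, 89.6 and 72.8 in aged control libraries and 103, 83.8 and 100.5 with EGCG. Young libraries were above all others (log2 fold change -0.93, standard error 0.068, adjusted p = 1.6e-16 with age). Per gene length, Ndufa4l2 stood at 2.28% ± 0.61 (SD, n = 3) of the Ndufa4 level in young control libraries, 44.0% ± 5.4 in aged control libraries and 26.4% ± 2.1 with EGCG. Exons of Ndufa4l2 overlap those of Shmt2, a gene of one-carbon metabolism on the other strand, which had 44.8, 70.4 and 65.6 CPM in the same groups and rose with age by 0.65. Retina markers, at 3.23%, 0.160% and 1.23% of counts in these groups, were high where Ndufa4 and Ndufs1 were high and low where Ndufa4l2 was high, and their part in these changes was not tested.

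The pair of subunit 4 isoforms also diverged. Cox4i1, the general isoform, was the most abundant of the 85 genes per length in every group, with 870.4 ± 11 FPKM (SD, n = 3) in young control libraries, 1169 ± 78 in aged control libraries and 1096 ± 81 with EGCG. Its CPM values were 580.3, 602 and 589 in young control libraries, 1065, 1021 and 891 in aged control libraries and 920.3, 842 and 789.5 with EGCG, with young libraries lowest (log2 fold change 0.75, standard error 0.051, adjusted p = 1.3e-17 with age). Cox4i2, an isoform known from lung and from the mural cells of vessels, read 6.49, 6.73 and 5.80 CPM in young control libraries, 1.99, 2.43 and 1.78 in aged control libraries and 3.81, 5.89 and 5.06 with EGCG. Young and aged values did not overlap (log2 fold change -1.61, standard error 0.27, adjusted p = 1.1e-06 with age). Cox4i2 rested on 23 to 108 counts a library and was 1.13% of Cox4i1 per length in young control libraries, 0.219% in aged control libraries and 0.615% with EGCG. Of the 16 endothelial and mural markers, 11 were called lower and 1 higher with age, and 4 lower and 1 higher with EGCG against aged control. Retina markers moved in the direction of Cox4i2 in both comparisons, at 3.23%, 0.160% and 1.23% of counts. Their part in the change of Cox4i2 was not tested.

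Cox7a2l, a relative of subunit 7a that joins complexes III and IV into supercomplexes, read 122, 124 and 122 CPM in young control libraries, 261, 239 and 229.8 in aged control libraries and 222, 215 and 225 with EGCG (log2 fold change 0.99, standard error 0.053, adjusted p = 2.1e-21 with age). Aged and EGCG libraries lay above all young ones. Cox7a2, the general isoform, read 78.9, 86.0 and 75.9 CPM in young control and 103, 102 and 86.6 in aged control libraries, and its rise of 0.28 became -0.046 with library size alone. Per length, Cox7a2l was 101% ± 5.7 (SD, n = 3) of Cox7a2 in young control libraries, 165% ± 9.9 in aged control libraries and 147% ± 18 with EGCG, and the young range of this ratio lay below the aged and EGCG ranges. Muscle isoforms were low: Cox7a1 lay between 0.606 and 1.89 CPM and Cox8b between 2.18 and 4.06 CPM, and neither was called in any comparison. Cox6b2, a testis isoform, rose from 4.35, 4.05 and 5.86 to 7.43, 10.8 and 6.50 CPM with age (log2 fold change 0.79, standard error 0.23, adjusted p = 0.00187).

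**Figure D2:**
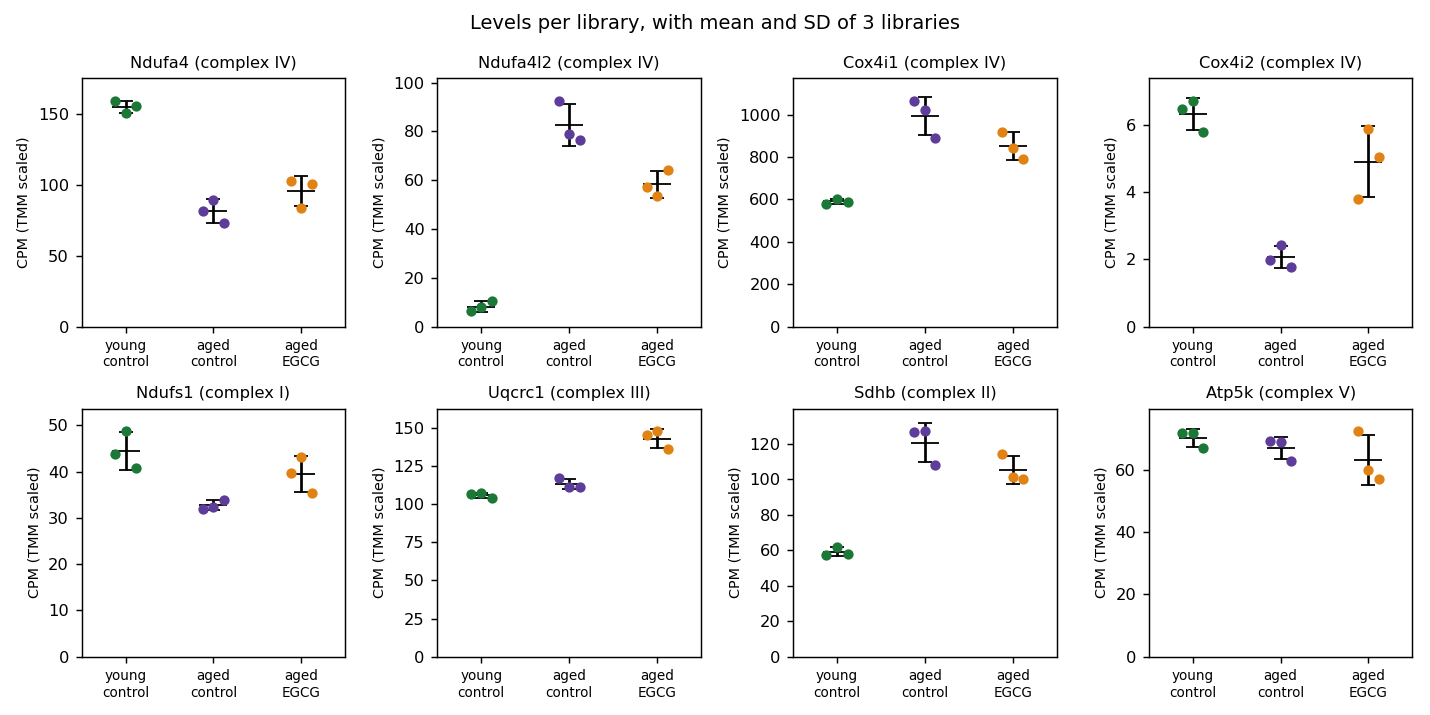
Level in each library (points, CPM scaled by TMM) with the mean and SD of the 3 libraries of a group, for 8 subunit genes. Ndufa4l2 is high where Ndufa4 is low, Cox4i2 is lowest in aged control libraries, and Atp5k has overlapping ranges in the 3 groups.

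In complex V, 13 of 17 genes were called higher with age and none lower, with a median of 0.51, the highest of the 5 complexes under TMM. With the length trend removed, complex II was highest at 0.38 and complex V was at 0.22. The calls differed between parts of the enzyme, which were grouped after the values were seen. All 5 subunits of the catalytic F1 head and its stalk, all 3 genes for the proton-carrying c-ring and all 4 subunits of the peripheral stalk were called higher, with medians of 0.54, 0.52 and 0.54. Of the 5 small subunits of the membrane part only Atp5j2 was called, and their median was -0.049. With library size alone, 10 genes of the complex were called higher and 5 lower. The peripheral stalk kept 4 of 4 called higher in each of the 5 scalings, whereas 4 of the 5 small membrane subunits were called lower with library size alone, with fibre scaling and with the length trend removed.

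Atp5b, the catalytic beta subunit, read 677, 698 and 672 CPM in young control libraries, 980.4, 953 and 945 in aged control libraries and 1047, 1044 and 1051 with EGCG. The groups did not overlap, and EGCG libraries were highest (log2 fold change 0.49, standard error 0.041, adjusted p = 1.4e-14 with age). Atp5d, the delta subunit of the central stalk, had the largest change of the enzyme, from 76.7, 75.6 and 87.7 to 145, 140.0 and 124 CPM (log2 fold change 0.77, standard error 0.064, adjusted p = 8.5e-15). Atp5e, the epsilon subunit of the same stalk, read 169, 178 and 176 CPM in young control and 227, 186 and 169.9 in aged control libraries, which overlapped (log2 fold change 0.16, standard error 0.067, adjusted p = 0.0365). Without aged control replicate 1, as without any 1 of the young libraries, Atp5e was not called, and its change became -0.17 with library size alone. Atp5pb, Atp5h, Atp5j and Atp5o of the peripheral stalk, which holds the head in place, rose by 0.58, 0.51, 0.60 and 0.51. Atp5g1, Atp5g2 and Atp5g3, which encode the same mature subunit c, rose by 0.52, 0.62 and 0.26, the last of these turning to -0.064 with library size alone.

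The small membrane subunits hold the dimer of the enzyme together. Atp5k, subunit e, read 71.9, 72.0 and 67.1 CPM in young control libraries, 69.4, 68.9 and 63.0 in aged control libraries and 72.5, 59.9 and 57.2 with EGCG. All 3 groups overlapped, and its change with age was -0.066 with an interval of -0.22 to 0.086. Atp5l, subunit g, read 90.2, 84.0 and 87.0 CPM in young control libraries, 94.8, 93.0 and 91.0 in aged control libraries and 80.0, 67.2 and 71.6 with EGCG. Aged values were all above young ones by a margin that was not called (log2 fold change 0.095, standard error 0.065, adjusted p = 0.196). Atp5md and Atp5mpl changed by -0.071 and -0.049, with intervals of -0.23 to 0.090 and -0.22 to 0.12.

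**Figure D3:**
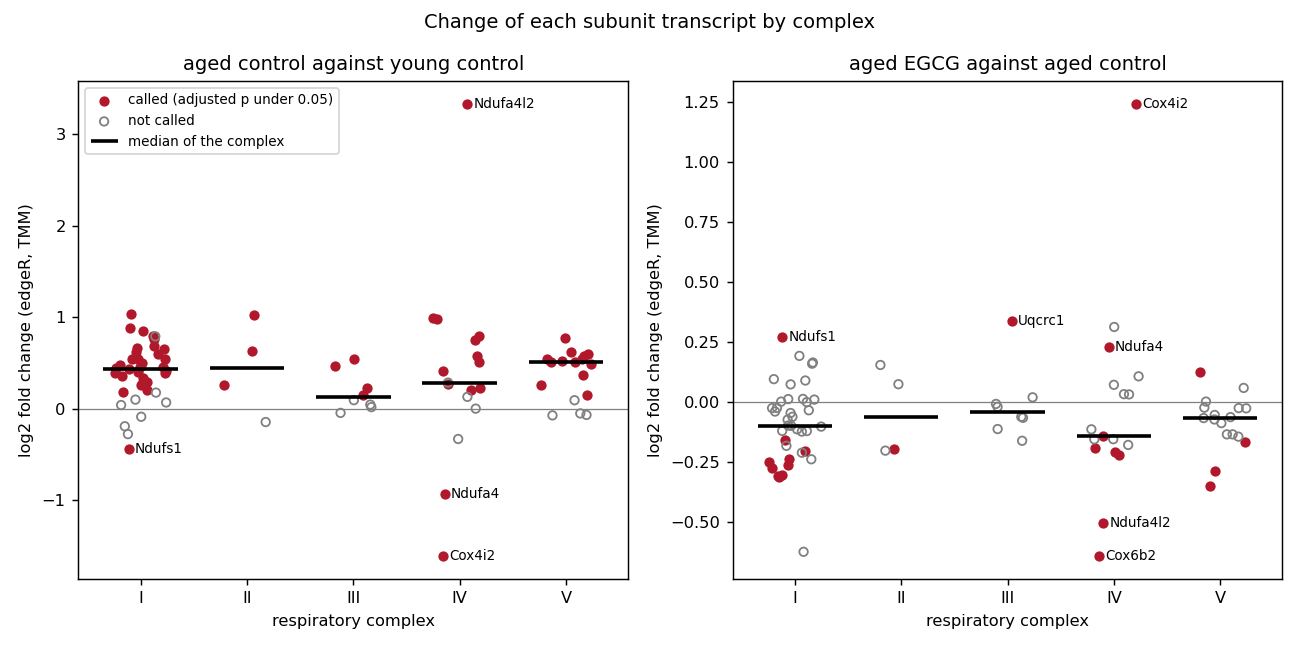
Log2 fold change of each subunit gene by respiratory complex, for aged against young control on the left and aged EGCG against aged control on the right, with called genes filled and the median of each complex as a bar. Medians with age run from 0.13 in complex III to 0.51 in complex V, and those with EGCG lie between -0.14 and -0.041.

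Fewer subunit transcripts were called with EGCG than with age, and most of those called were lower. In aged EGCG against aged control libraries, 5 of the 85 genes were called higher and 19 lower, with a median of -0.073, against 13.8% of all genes called higher and 10.3% lower and a median near 0 of -0.0038. Of the 19 called lower, 9 belonged to complex I, 1 to complex II, 6 to complex IV and 3 to complex V. The 5 called higher were Ndufs1, Uqcrc1, Ndufa4, Cox4i2 and Atp5b. The calls of lower transcripts rested on single libraries: without EGCG replicate 3 the 19 became 5, and without aged control replicate 1 they became 10, while without aged control replicate 3 they became 26. They also depended on scaling, with 13 genes higher and 3 lower by library size alone, 26 and 1 by lens fibre genes, and 4 and 22 with the length trend removed. Of all genes tested, 22.5% were called higher and 4.46% lower by library size alone. These shares were 31.9% and 3.35% by lens fibre genes, and 11.1% and 21.1% with the length trend removed. Cox4i2, Ndufa4 and Uqcrc1 were called higher and Ndufa4l2 lower in all 5 scalings. Ndufa4 was not called without EGCG replicate 1, without EGCG replicate 3 or without aged control replicate 3.

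Among the genes called higher with EGCG, Uqcrc1, a core protein of complex III, read 106, 107 and 104 CPM in young control libraries, 117, 111 and 111 in aged control libraries and 145, 148 and 136 with EGCG. All EGCG values were above all others (log2 fold change 0.34, standard error 0.057, adjusted p = 6.7e-06 with EGCG). Cox4i2 was 2.37-fold higher in EGCG than in aged control libraries with no overlap (log2 fold change 1.24, standard error 0.28, adjusted p = 0.000495). Against young control its change was -0.36, with an interval of -0.86 to 0.13. Ndufa4 rose by 0.23 (adjusted p = 0.0115), with 1 EGCG library inside the aged range, and remained below all young libraries (log2 fold change -0.70, standard error 0.068, adjusted p = 1.7e-12, EGCG against young). Ndufs1 rose by 0.27 (adjusted p = 0.0289), and its EGCG and young values overlapped. That call was lost without EGCG replicate 1 or 2 and without aged control replicate 1 or 2. The call of Atp5b, a rise of 0.13 with no overlap (adjusted p = 0.0191), was lost without EGCG replicate 2 or aged control replicate 2. Retina markers, at 0.160% of counts in aged control and 1.23% in EGCG libraries, also rose in this comparison, and their part in these 5 rises was not tested.

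Among the genes called lower with EGCG, Ndufa4l2 was 1.42-fold lower than in aged control, with no overlap between EGCG and aged control libraries (log2 fold change -0.50, standard error 0.092, adjusted p = 2.7e-05). By limma on FPKM, with a change of -0.37, this fall was not called. The EGCG level of Ndufa4l2 was still 7.11-fold the young one. Cox6b2 had the largest fall among called genes, to 5.56, 4.93 and 5.37 CPM (log2 fold change -0.64, standard error 0.23, adjusted p = 0.0322), and was not called without EGCG replicate 2, EGCG replicate 3 or aged control replicate 2. Atp5l of complex V was called lower with all EGCG libraries below the aged control and young ones (log2 fold change -0.35, standard error 0.067, adjusted p = 5.3e-05). In complex I the largest falls among called genes were those of Ndufb7, with a change of -0.31, and Ndufa3, with -0.31, both accessory subunits. Ndufb7 read 107, 97.6 and 94.8 CPM in aged control and 84.2, 80.0 and 76.8 in EGCG libraries, which did not overlap. Ndufa3 read 118, 123 and 101 CPM and 99.2, 100.4 and 76.6, with EGCG replicate 3 lowest and near the young values of 74.8, 75.6 and 75.8. Without that library Ndufa3 was not called. Cox4i1 was called lower with overlapping libraries (log2 fold change -0.22, standard error 0.051, adjusted p = 0.000693), as was Sdhb, with a change of -0.20 (adjusted p = 0.0228). Whichever single library was left out, Uqcrc1 and Cox4i2 were still called higher and Ndufa4l2, Atp5l, Ndufb7 and Cox4i1 still called lower with EGCG. Of these 4 called lower, only Ndufa4l2 was called lower in all 5 scalings. Sdhb was not called without EGCG replicate 2 or 3 or without aged control replicate 1 or 2.

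Against young control, EGCG libraries had 54 of the 85 genes called higher and 4 lower, with a median of 0.33, beside 32.3% and 31.4% of all genes. The 4 lower were Ndufa1, Ndufa4, Ndufb4 and Atp5l. In all 5 scalings, 38 genes were called higher and the same 4 lower. Over all genes tested this was not counted, and their shares cannot exceed 22.6% higher and 24.5% lower, the lowest under any scaling. By complex, 27 of 39 genes of complex I, 3 of 4 of complex II, 4 of 8 of complex III, 8 of 17 of complex IV and 12 of 17 of complex V were called higher. Ndufa1 read 96.2, 81.9 and 74.5 CPM in EGCG libraries, below all young ones (log2 fold change -0.36, standard error 0.069, adjusted p = 1.4e-05). Ndufa13, Cox6a1 and Cox7a2l stood 1.84-fold, 1.82-fold and 1.80-fold above young control. The 3 comparisons share their libraries in pairs, so their values are set side by side and no agreement between them is drawn.

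As a share of all raw counts, the 85 genes took 0.815% ± 0.0057 (SD, n = 3) in young control libraries, 0.894% ± 0.028 in aged control libraries and 0.929% ± 0.035 with EGCG. Young libraries reached at most 0.822% and aged control libraries at least 0.861%, so the groups did not overlap, while aged control and EGCG ranges did. Within the subunit counts, complex III took 7.85% in young control libraries, 6.45% in aged control libraries and 6.90% with EGCG. Those ranges did not overlap: 7.74% to 7.92%, 6.31% to 6.54% and 6.76% to 7.01%. Complex IV took 24.2%, 25.7% and 24.2%, and complexes I, II and V stayed within 29.1% to 29.9%, 4.31% to 4.67% and 33.2% to 35.2% over all libraries. Cox4i1 alone made up 8.16%, 9.99% and 9.01% of subunit counts, and Atp5b 9.43%, 9.69% and 11.1%.

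Per gene length, the order of the most abundant subunits changed little for its first members. Cox4i1 led in each group. Atp5b, Cox7c, Atp5e and Atp5j2 came next in varying order, with 409 ± 5.8, 472 ± 2.6, 475 ± 10.4 and 382 ± 12 FPKM in young control libraries. Of these neighbours, Atp5e and Cox7c differed by less than their spread in young control and in aged control libraries, where they read 422 ± 54 and 437 ± 36. Ndufa4 was the sixth in young control, at 351 ± 12 FPKM, and fell to 148 ± 13 in aged control libraries. FPKM values carry no scaling beyond library size. The lowest level in every group was that of Ndufb4b, at 2.58 ± 0.79 FPKM in young control and 1.68 ± 0.76 in aged control libraries, with Cox7a1 also among the last 3 places. Cox4i2 joined these last 3 only in aged control libraries, at 2.56 ± 0.38 FPKM.

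The subunit genes are short, and in these libraries change with age went with gene length. Their median length, implied by the deposited counts and FPKM, was 761 nt, against 3722 nt for all genes tested. With all genes tested split by length into 10 classes of equal size, 65 of the 85 lay in the shortest class, up to 1408 nt. Within that class, the median change with age was 0.41 for the subunit genes and 0.52 for all 1372 genes. In the next class, from 1408 nt to 2000 nt, the 12 subunit genes had a median of 0.50 and all genes 0.34. Across all genes tested the rank correlation of change with length was -0.33, and across the 85 subunit genes it was 0.16, both given as descriptions over genes that share the same libraries. With EGCG, the shortest class had a median of -0.11 for subunit genes and -0.10 for all genes. The part of length in the subunit changes was not tested beyond the scaling that removes its trend, given above.

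**Figure D4:**
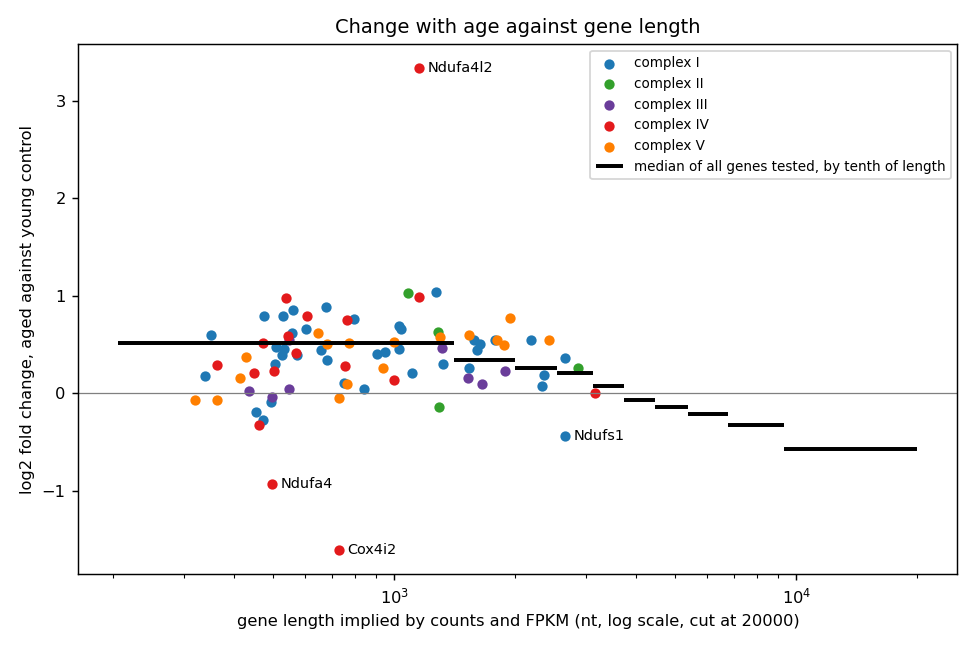
Log2 fold change of each subunit gene, aged against young control, by gene length in nt on a log axis, with black bars for the median of all genes tested in each of 10 length classes. The bar of the shortest class stands at 0.52, and the subunit genes of that class have a median of 0.41. Ndufa4, Cox4i2 and Ndufs1, which were called lower, lie below 0, as do some genes that were not called.

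**Figure D5:**
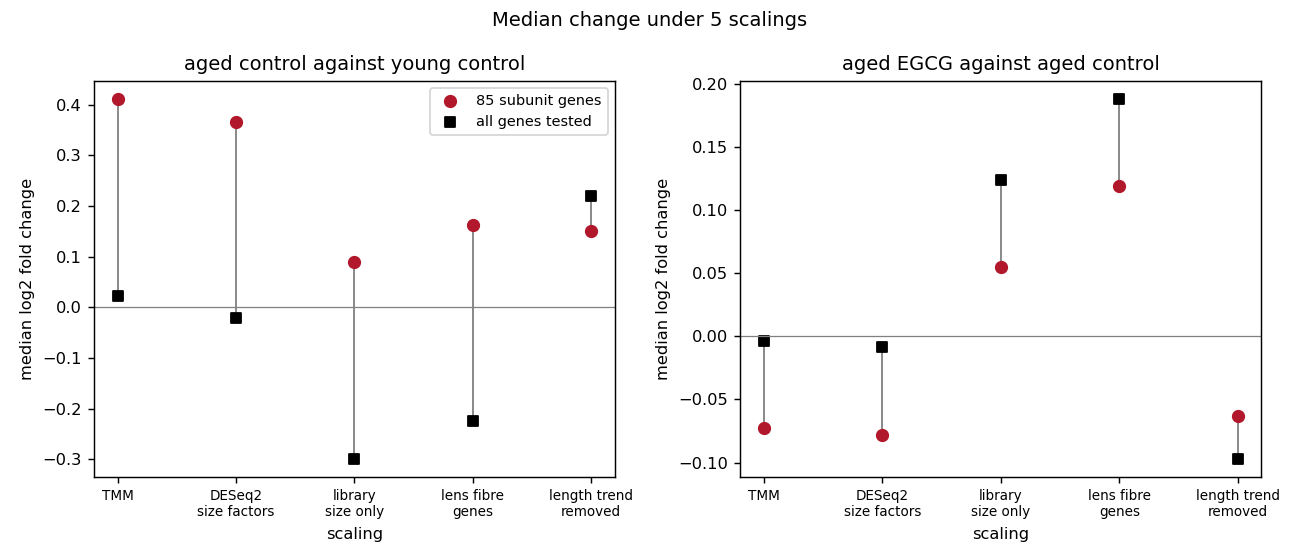
Median log2 fold change of the 85 subunit genes (circles) and of all genes tested (squares) under 5 scalings, for aged against young control on the left and aged EGCG against aged control on the right. The gap between circle and square is 0.39 under 4 scalings on the left and reverses to -0.068 with the length trend removed. Those 4 scalings shift all genes of a library nearly alike, so their equal gaps are not separate results.

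Genes that work with the subunits were taken from lists of assembly factors and of 3 further components, and their changes were mixed. All 3 components outside the symbol rule rose with age: Atpif1, the inhibitor of the ATP synthase, by 0.85, Cyc1, cytochrome c1, by 0.33, and Cycs, cytochrome c, by 0.29. Of these, Atpif1 was called in all 5 scalings, while Cyc1 and Cycs were each called in 3 and the change of Cycs reached -0.033 at its lowest. Assembly factors of complex I were called higher in 7 and lower in 3 of 15 genes, and those of complex IV in 9 and 3 of 19, beside 35.4% and 33.8% of all genes. Changes ran from -0.95 to 1.08 over the factors of complex I and from -0.82 to 0.92 over those of complex IV. Among them Timmdc1 rose from 25 ± 0.31 to 44.0 ± 4.5 CPM (SD, n = 3), Ndufaf3 by 1.01, Coa5 by 0.92 and Cox20 by 0.89, each called in all 5 scalings. Ttc19, a factor of complex III, changed by -1.61, from 18.3 ± 1.8 to 6.0 ± 0.49 CPM, and was likewise called lower in all 5. For the other complexes the counts were 2 higher and 1 lower of 4 for complex II, 2 and 1 of 6 for complex III and 1 and 0 of 3 for complex V. With EGCG against aged control, 1 of 15 factors of complex I, 1 of 6 of complex III and 1 of 19 of complex IV were called, beside 13.8% of all genes higher and 10.3% lower: Ndufaf5 rose by 0.57 and Taco1 by 0.89, and Uqcc2 fell to 41.1 ± 6.9 CPM from 54.9 ± 6.2 (log2 fold change -0.42, standard error 0.095, adjusted p = 0.000601).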

How the data were processed

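Per the labels' protocols, total RNA of anterior lens capsule was made into RNA-seq libraries with a kit named SMARTER mRNA-Seq, and the genome build was GRCm38 (mm10), per the submitters' processing notes. The sources used here give no aligner, counter, annotation or strand setting. The authors deposited raw counts per gene symbol and FPKM for 9 libraries. The deposited FPKM values equalled counts per gene length and library total within 0.01% for 138164 entries, and gene lengths were taken from them.

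Counts were tested with edgeR 4.0.16 (R 4.3.3): the default expression filter, TMM scaling, 1 quasi-likelihood fit of the 3 group means and Benjamini-Hochberg adjustment over 13711 genes, called at 0.05. With 3 libraries a group, standard errors come from the fit and intervals are 95%. Alternatives were DESeq2 1.42.0, its size factors, library size alone, scaling to lens fibre genes, removal of the length trend, limma 3.58.1 on log2 of FPKM with a pseudocount of 1 or 0.1, a minimum of 10 counts in every library, no filter on low counts, adjusted p under 0.01, the groups compared alone, a replicate block and leaving out each library. The procedure was tested on simulated data.

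Subunit genes, gene lists and tests were chosen with earlier results of these data known, and roles within complexes after the values were seen. Full statistics were given, per complex in the first 2 comparisons, for the 2 called genes with the largest rise and fall at 5 CPM or more in the higher group, for complex II, for paralogs and for genes called against their complex's majority, with further examples chosen after their values were seen. For related lists, up to 3 called genes with the smallest p were named. Coordinates are from GENCODE vM21 (GRCm38). No library was left out, and no 2 libraries agreed within sampling noise. The values of 1 subunit gene are not reported here.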

Additional observations from a re-analysis of the deposited data

How the results depend on the processing

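Calls depended on scaling and on the values tested. Of 85 subunit genes, 61 higher and 3 lower with age became 33 and 22 with library size alone and 35 and 22 by limma on log2 FPKM at either pseudocount, with medians of 0.089, 0.088 and 0.087 in place of 0.41. The lower count was 16 with scaling to lens fibre genes (median 0.16), 17 with the length trend removed (0.15) and 6 with at least 10 counts in every library (0.34). With EGCG against aged control, 5 higher and 19 lower became 13 and 3 with library size alone, 15 and 1 by limma and 26 and 1 with fibre scaling, and the median turned from -0.073 to 0.055, 0.055 and 0.054 (both pseudocounts) and 0.12. At an adjusted p under 0.01 the counts were 2 and 11. With EGCG against young control, 4 lower became 7 with DESeq2 size factors, 8 with the count minimum and with fibre scaling, 20 with the length trend removed and 16 with library size and limma, and the median of 0.33 became 0.26 with the count minimum and 0.13 to 0.14 under the last 3. The cause was not tested.

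Leaving out 1 library in turn gave 57 to 63 higher and 3 to 4 lower with age, 4 to 6 higher and 5 to 26 lower with EGCG against aged control, and 4 to 7 lower with EGCG against young control.

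Several named genes that were called under the main test, an alternative or both changed direction. With age and library size alone the values were -0.17 for Atp5e, -0.064 for Atp5g3, -0.23 for Atp5l, -0.046 for Cox7a2, -0.19 for Cox7b, -0.062 for Sdha and -0.23 for Uqcrc1. By limma with pseudocounts of 0.1 and 1 they were -0.18 and -0.18 for Atp5e, -0.064 and -0.063 for Atp5g3, -0.23 and -0.22 for Atp5l, -0.048 and -0.048 for Cox7a2, -0.19 and -0.19 for Cox7b, -0.062 and -0.061 for Sdha and -0.23 and -0.22 for Uqcrc1. With fibre scaling Atp5e, Atp5l and Uqcrc1 were at -0.092, -0.15 and -0.15, and with the length trend removed Atp5e, Atp5g3, Atp5l and Cox7a2 were at -0.17, -0.0096, -0.20 and -0.022. With EGCG against young control, Atp5g3 was at -0.067 with the length trend removed, -0.0095 with library size alone and -0.0095 and -0.0094 by limma, and Sdhc was at -0.22 with the length trend removed. With EGCG against aged control, Ndufb10 was at 0.13 and 0.13 by limma and 0.19 with fibre scaling, where Cox7a2l was at 0.049, Cox8a at 0.0019 and Ndufa13 at 0.034.

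Replicate numbers were given to all 3 groups by the labels. Deviations of same-numbered libraries correlated by -0.005 to 0.036 and those of other pairs by -0.028 to 0.023. No pairing by number showed in these correlations, and whether same-numbered libraries shared a batch was not tested. With a replicate block the counts were 61 higher and 3 lower with age, 6 and 21 with EGCG against aged control and 54 and 6 with EGCG against young control.

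Placing Ndufa4 and Ndufa4l2 with complex I by symbol gave 31 higher and 2 lower of 41 genes there with age. Depth limited the lowest genes, Ndufb4b, Cox7a1 and Ndufs6b, whose intervals were wide. The named subunit genes were followed under these alternatives. With age 616 values, with EGCG against aged control 568 and with EGCG against young control 622 kept their call or stayed uncalled. Values uncalled under both settings were counted as kept whatever their direction. In all comparisons 113 lost a call and 55 gained one. A further 39 changed direction while called under the main test, the alternative or both.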

Other observations

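Other nuclear genes of mitochondrial metabolism were taken from further lists. Of 18 genes of the citric acid cycle and pyruvate dehydrogenase, 11 were called higher and 1 lower in aged against young control libraries by the quasi-likelihood test of edgeR, beside 35.4% and 33.8% of all genes. Suclg2, a subunit of succinyl-CoA synthetase, rose from 41.7 ± 2.5 to 99.9 ± 2.0 CPM (SD, n = 3), Pdhx by 1.11 and Idh2 by 0.84 on the log2 scale, each in all 5 scalings. Idh3a was the 1 called lower, and it rose with EGCG by 0.27 (adjusted p = 0.0246). With library size alone the list had 5 genes higher and 6 lower with age. Of 6 carriers and porins, 4 were called higher with age, led by Slc25a4, the adenine nucleotide carrier of muscle and heart, from 431 ± 10.2 to 929 ± 37 CPM. Slc25a5, its general relative, rose with EGCG by 0.20 and was called in all 5 scalings. Of 12 import and chaperone genes, 9 were called higher, among them Timm17a by 1.01, and 2 lower, among them Hspe1 by -0.34.

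Of 17 regulators of mitochondrial biogenesis, 5 were called higher and 7 lower with age, 29.4% and 41.2%, close to the 35.4% and 33.8% of all genes. Ppargc1b, a coactivator of subunit genes, fell from 19.5 ± 0.58 to 3.64 ± 0.072 CPM and stood at 6.29 ± 1.6 with EGCG (log2 fold change 0.79, standard error 0.20, adjusted p = 0.00242). Ppargc1a fell from 17.7 ± 1.5 to 5.58 ± 0.77 CPM and stood at 5.55 ± 0.72 with EGCG. Yy1 rose with age by 0.61. All these calls with age, and that of Ppargc1b with EGCG, were made in all 5 scalings. Retina markers also fell with age, from 3.23% to 0.160% of counts, and their part in these changes was not tested.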
